A study of Mus musculus with 2 samples.

Results

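Hist1h2bc-high progenitors were bone marrow cells in which 2 or more unique molecular identifiers (UMIs, one per captured RNA molecule) of the histone gene Hist1h2bc were counted. Of 7823 cells kept, 247 met this rule, 92 of 3253 in library 1 and 155 of 4570 in library 2. They were set against the 6978 cells with no Hist1h2bc UMI, 2935 in library 1 and 4043 in library 2, and the 598 cells with a single UMI were left between the groups. The cells were chosen by the measured level of 1 gene, so its own level in them is a description and not a result.

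The cells came from 2 mouse samples of C57BL/6 background, 1 lacking Spp1 (Spp1-/-, without the secreted phosphoprotein osteopontin) and 1 wild type, both taken 20 hours after thioglycollate, an inflammatory irritant, was injected into the peritoneal cavity. Both were sorted as multipotent progenitors (MPPs), which per the labels are negative for lineage markers (Lin) and positive for Sca-1, c-kit, CD34 and Flt3L (as labelled, the name of the ligand of Flt3), and each was profiled as 1 droplet library of RNA 3′ ends. The 2 libraries stood in 1 matrix and were told apart by the number after each cell barcode; no label ties that number to a genotype, so they are called library 1 and library 2 and no difference is read as an effect of Spp1. The number of mice behind each sample is not stated, and there was no uninjected sample, so every cell described had the same treatment. With 1 library per genotype there was no test. Intervals are 95% intervals for counting error only, exact except where cells were weighted, where they are approximate. A gene was called higher or lower where the ratio was 1.5-fold or more the same way in both libraries.

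Hist1h2bc encodes a form of histone H2B, one of the core proteins around which DNA is wound. Most genes of the histone clusters are transcribed during S phase, when new DNA has to be packaged, and their messages end in a stem-loop in place of a poly(A) tail. Replacement histone genes such as H3f3a and H2afz are transcribed through the whole cycle and carry ordinary poly(A) tails. A 3′ library primed on poly(A) sees a cluster histone mainly where a tailed transcript is made.

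The annotated 3′ ends bear on which histone molecules such a library can count. Hist1h2bc (ENSMUSG00000018102) lies on the plus strand at chr13:23684199-23692908 of GRCm38, in GENCODE M21 annotation, and its 1 annotated transcript has 2 exons. The stop codon ends 9 bases before the end of exon 1, an intron of 7554 bases follows, and exon 2 (chr13:23692176-23692908) is 733 bases of 3′ untranslated sequence. The stem-loop motif of cluster histone messages, with the fixed letters GG, CTTTT, AG and GCC kept apart by 2, 1 and 1 free bases, was searched on the sense strand. It was not found in that spliced transcript, whereas AATAAA, the common polyadenylation signal, occurred 1 time over its whole length. The intron was not searched. The motif was present in 0.0388% of 141767 annotated mouse transcripts. The stem-loops of some of the histone genes whose levels are described below are shown to compare them, in lower case with the fixed letters of the motif in capitals.
Hist1h1c (chr13:23739512-23739527, plus strand): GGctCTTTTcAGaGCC
Hist3h2a (chr11:58955172-58955187, plus strand): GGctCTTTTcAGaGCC
Hist1h4d (chr13:23581950-23581965, plus strand): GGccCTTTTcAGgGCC
Hist1h4i (chr13:22040966-22040981, minus strand): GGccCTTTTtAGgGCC
The annotated transcripts continued for 840 bases past the stem-loop in Hist1h1c, 1643 in Hist3h2a, 770 in Hist1h4d and 330 in Hist1h4i. Hist1h1e, whose level is also described below, held the motif as well, followed by 1153 bases, and is not shown. The annotation of Hist1h1b stopped without the motif, after 743 bases. Of the 50-base stretches in the last 300 bases of Hist1h2bc, 3.19% also occurred in a transcript of another gene, against 100% for Hist1h1e and 67.7% for Hist1h2bj, whose counts are therefore uncertain.

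Hist1h2bc was a low message concentrated in a small share of cells. It had 504 UMIs in library 1 and 825 in library 2, which is 49.8 CPM (a gene's UMIs scaled to a common library total; interval 45.6 to 54.4) and 44.0 CPM (41.0 to 47.1). High cells were 2.83% of the cells in library 1 (2.29 to 3.46) and 3.39% in library 2 (2.89 to 3.96), and they held 55.2% and 54.9% of all Hist1h2bc UMIs. Just inside the rule stood 43 and 84 cells with 2 UMIs, and just outside it 226 and 372 cells with 1. Above these, 49 and 71 cells had 3 or more, up to 8 UMIs in a cell of library 1 and 10 in a cell of library 2. If every cell had spent the same share of its UMIs on Hist1h2bc, 41.7 and 76.8 cells would have had 2 or more. Within the high cells the gene spanned 289 to 4118 CPM in library 1 (median 958) and 172 to 6676 CPM in library 2 (median 571).

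**Figure D1:**
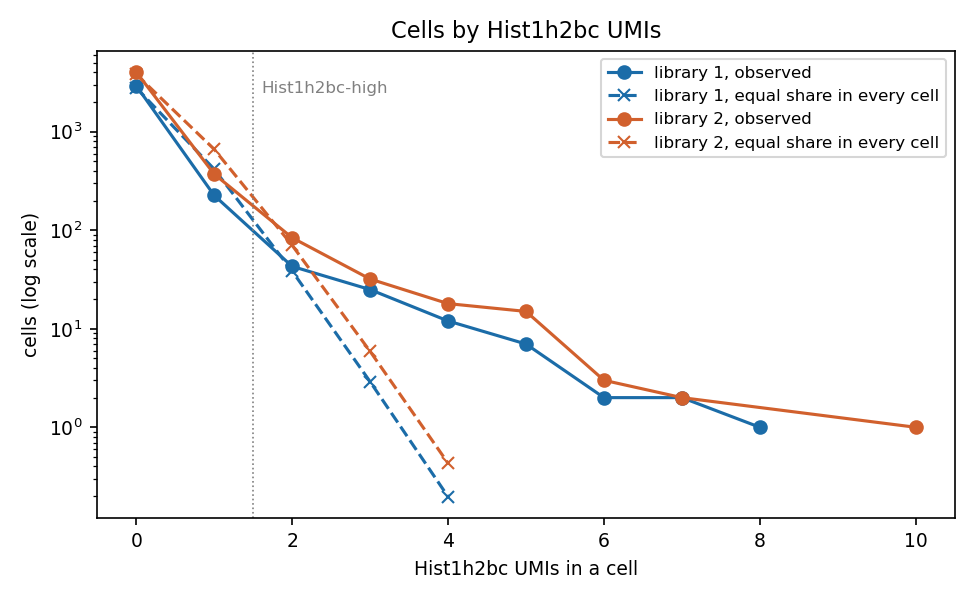
Number of cells (log scale) at each number of Hist1h2bc UMIs in library 1 and library 2; circles are observed cells and crosses the number that an equal share of UMIs in every cell would give. The observed points lie below the crosses at 1 UMI, with 226 and 372 cells where an equal share would give 417 and 665, and above them from 3 UMIs on, with 25 and 32 cells at 3 UMIs against 2.91 and 5.91.

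Depth entered the rule, because a deeper cell has more chances to show 2 UMIs. High cells had a median of 2951 UMIs and 1165 genes in library 1 and 4674 UMIs and 1712 genes in library 2, against 2799 UMIs and 1163 genes, and 3742 UMIs and 1513 genes, in zero cells. Thinned to 2000 UMIs per cell, which left out 809 and 554 shallower cells, 1.31% (0.897 to 1.84) and 1.17% (0.861 to 1.55) of cells still had 2 or more. The median mitochondrial share was 0.495% and 0.514% in high cells, against 0.476% and 0.504% in zero cells. The libraries shared 32 kept barcodes, of which 2 belonged to high cells and none was high in both. The doublet caller Scrublet marked 1 cell per library, too few to count as working, so doublets were left in; of the 163 and 229 cells with the highest scores, 5 and 10 were high.

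To compare cells of the same depth, 1 zero cell was drawn for each high cell within its library and UMI range. Among 779 genes with at least 100 UMIs in each library, 2 genes were called higher in high cells, 0.257% of those tested, and 3 were called lower, 0.385%. The higher genes were Dntt, the template-independent polymerase of early lymphoid cells, and Cenpa, the histone H3 variant that marks centromeres. The lower genes were Top2a, the topoisomerase that untangles replicated DNA, 2810417H13Rik, a partner of PCNA at replication forks, and Cyba, a subunit of the phagocyte oxidase. Dntt had 234 UMIs in 92 high cells of library 1 against 91 in the drawn zero cells, and 512 against 315 in library 2, log2 ratios of 1.34 and 0.71. Cenpa had 87 UMIs in high cells against 26 in zero cells of library 1, and 245 against 155 in library 2, log2 ratios of 1.72 and 0.66. Top2a had 31 UMIs in high cells against 80 in zero cells, and 236 against 366, log2 ratios of -1.39 and -0.63. The log2 ratio of 2810417H13Rik was -1.52 and -0.96, and that of Cyba -0.91 and -0.65. Across the alternative cell sets and scalings tried, the log2 ratio of Dntt ran between 0.24 and 1.43 in library 1 and between 0.09 and 0.74 in library 2. Its call thus depended on which cells were compared. The log2 ratio of Cenpa ran between 0.57 and 1.36 in library 2, with the low end just short of 1.5-fold. Cyba fell short of 1.5-fold in the weighted comparison, at -0.57 and -0.47. The median over all 779 genes was close to 0 in each library, and 510 of them had the same sign in both.

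Genes short of 1.5-fold but highest in both libraries included Lgals1, the lectin galectin-1 (log2 0.70 and 0.43), Hp1bp3, a linker-histone relative (0.99 and 0.38), the class I histocompatibility gene H2-D1 (0.47 and 0.29) and the lymphocyte receptor gene Cd27 (0.38 and 0.31). Rpl22l1, a ribosomal protein gene, stood at 0.39 and 0.43, but 63.3% of the 50-base stretches in its 3′ end occurred in other genes. Among the lowest were the replication genes Pcna, the sliding clamp (-0.60 and -0.54), and Gmnn, which blocks a second round of replication (-1.09 and -0.38). Named from a list of S phase genes and not from this ranking, Dut, which removes dUTP, was at -0.95 and -0.33. From the same list, Mcm3, part of the replicative helicase, was at -1.07 and -0.36. Across the alternatives Mcm3 ran between -1.07 and -0.03 in library 1 and between -0.36 and 0.09 in library 2. The nuclear RNA Malat1 was also among the lowest (-0.83 and -0.44). It had 740 UMIs in high cells against 1291 in zero cells of library 1, and 2044 against 2785 in library 2.

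The 1-to-1 draw left most cell-cycle and histone genes with too few counts. A second comparison, added after the first was seen, used all zero cells and weighted them to the UMI ranges of the high cells, 2934 zero cells in library 1 and 3962 in library 2. It gave 3085 genes with at least 20 UMIs in each library; 12 were called higher (0.389%) and 27 lower (0.875%), and the median log2 ratio over all genes was -0.02 and -0.03. Genes taken from it below were chosen after their values were seen. The calls included mitotic genes in both directions, a linker histone gene in each direction, and replication genes on the low side.

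**Figure D2:**
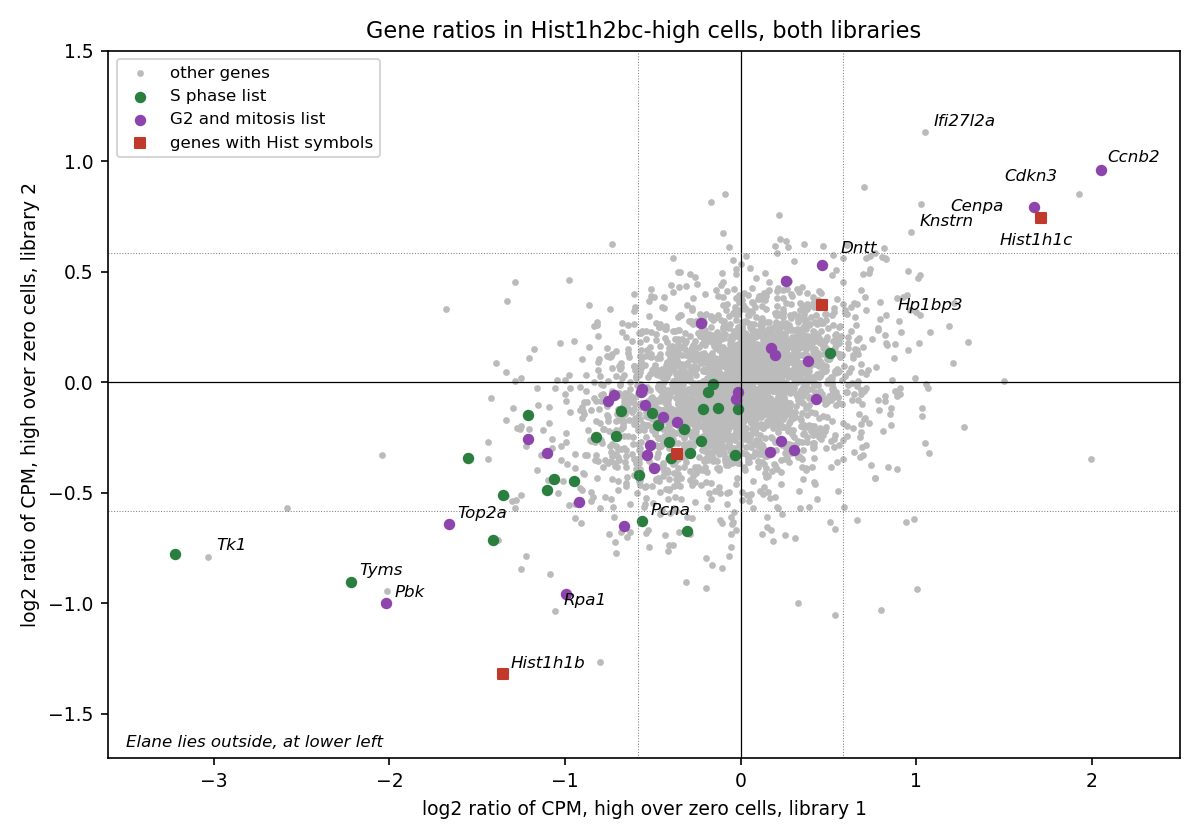
Each point is a gene, placed by its log2 ratio of CPM in Hist1h2bc-high over zero cells in library 1 (horizontal) and library 2 (vertical), with all zero cells weighted to the depth of the high cells; dotted lines mark 1.5-fold. S phase genes lie mostly in the lower left, while Ccnb2, Cenpa, Cdkn3 and Hist1h1c lie at the upper right.

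Replication genes were low in the high cells. Summed over the 44 genes of an S phase list, the drawn comparison gave log2 -0.59 (-0.71 to -0.46) in library 1 and -0.38 in library 2. In the weighted comparison 28 of the 29 listed genes that could be tested were lower in both libraries, with a list median of -0.50 and -0.27. Of the 29, 3 were called lower. Over all 3085 genes tested, 1937 had the same sign in both libraries, in either direction, and 0.875% were called lower. Among the listed genes called lower were Tyms, the thymidylate synthase, and Mcm5, of the replicative helicase. Tyms had 13 UMIs in 92 high cells of library 1 and 95 in 155 high cells of library 2. That is 44.3 CPM in high cells against 206 CPM in zero cells, and 131 against 245 CPM, log2 ratios of -2.22 and -0.90. Tk1, the salvage thymidine kinase, stood at 17.0 CPM in high cells against 139 CPM in zero cells, and 96.4 against 167 CPM. The log2 ratios of Rpa1, the single-strand binding protein, were -1.06 and -1.04, and those of Lig1, the replicative ligase, -1.22 and -0.79. Tk1, Rpa1 and Lig1 were each past 1.5-fold lower in both libraries, and not all of them are on the list. The exception among the listed genes was Casp8ap2, a factor needed for cluster histone transcription, at 0.51 and 0.13. Slbp, whose protein binds the histone stem-loop, was at -0.22 and -0.27.

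Genes of G2 and mitosis went in different directions. Summed over 60 listed genes the drawn comparison gave log2 -0.22 (-0.32 to -0.11) and -0.11, and of 31 tested in the weighted one, 7 were higher in both libraries and 19 lower in both. Of the 31, 2 were called higher and 4 lower, beside 0.389% and 0.875% of all genes. The 2 called higher were Ccnb2, a mitotic cyclin, and Cenpa. Ccnb2 had 65 UMIs in high cells of library 1 and 185 in those of library 2, which is 221 CPM in high cells against 53.4 CPM in zero cells, and 255 against 131 CPM (log2 2.05, interval 1.65 to 2.44, and 0.96, 0.73 to 1.18). Across the alternatives Ccnb2 ran between 1.21 and 3.41 in library 1 and between 0.55 and 3.36 in library 2. The low end in library 2 was just short of 1.5-fold. Cenpa stood at 296 CPM in high cells against 93.2 CPM in zero cells, and 337 against 195 CPM. Outside the list, Cdkn3, a phosphatase that acts on CDKs (log2 1.93 and 0.85, but -0.15 in library 2 in the drawn comparison of cells with 3 or more Hist1h2bc UMIs), and Knstrn, a kinetochore adaptor (0.97 and 0.68), were called higher as well. The log2 ratios of Ccnb1, the other main mitotic cyclin, were 0.46 and 0.53, and those of Cdc20, an activator of the anaphase-promoting complex, 0.26 and 0.46. In the drawn comparison library 1 gave -0.03 for Ccnb1 and -0.44 for Cdc20, with intervals that included 0. The 4 called lower were Top2a (-1.66 and -0.64), the mitotic kinase gene Pbk (20.4 CPM in high cells against 82.8 CPM in zero cells, and 63.3 against 126 CPM), the kinetochore gene Spc25 (-0.99 and -0.96) and Aurkb, the kinase of the chromosomal passenger complex (-0.67 and -0.65); the drawn ratio of Aurkb in library 1 turned to 1.22 among cells with 1000 or more genes and under 5% mitochondrial UMIs. Cdk1, the partner of both cyclins, stood at -0.92 and -0.54.

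Ccnb2 and Cenpa were both called higher, and their promoters are shown for that reason, from RefSeq on GRCm38.p6, 250 bases before to 50 after the start. Capitals mark TTTGAA, the core of the cell-cycle homology element, and CCAAT, the NF-Y box, each searched on both strands; a box on the other strand reads ATTGG.
Ccnb2 (chr9:70421505-70421804, minus strand): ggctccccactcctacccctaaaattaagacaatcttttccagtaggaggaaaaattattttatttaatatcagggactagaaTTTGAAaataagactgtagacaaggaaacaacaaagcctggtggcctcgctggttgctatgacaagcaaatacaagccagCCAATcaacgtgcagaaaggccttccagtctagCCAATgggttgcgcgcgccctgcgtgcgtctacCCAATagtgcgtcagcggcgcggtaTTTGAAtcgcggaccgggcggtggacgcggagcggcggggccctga
Cenpa (chr5:30666636-30666935, plus strand): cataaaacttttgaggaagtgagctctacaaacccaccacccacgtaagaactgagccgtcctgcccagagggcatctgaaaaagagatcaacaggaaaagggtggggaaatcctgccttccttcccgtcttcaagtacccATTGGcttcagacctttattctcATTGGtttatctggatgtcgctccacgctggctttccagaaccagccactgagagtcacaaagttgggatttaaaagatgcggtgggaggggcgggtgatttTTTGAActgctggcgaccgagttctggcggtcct
TTTGAA was present in 17.9% and CCAAT in 37.4% of 32851 mouse promoters of this length. Both motifs were also present in the promoters of Cdkn3 and Cdc20, and in that of Top2a, which was low in the high cells. Knstrn had neither.

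The cell-by-cell view kept depth equal by thinning every cell to 2000 UMIs, which left 68 high and 2192 zero cells in library 1 and 139 high and 3537 zero cells in library 2. Cells with a Ccnb2 UMI and no Top2a UMI made up 29.4% of high cells (19.0 to 41.7) against 2.46% of zero cells (1.86 to 3.20) in library 1, and 23.0% (16.3 to 30.9) against 4.47% in library 2. Cells with both made up 2.94% of high and 5.20% of zero cells, and 9.35% of high and 10.6% of zero cells. Top2a without Ccnb2 was found in 8.82% of high against 37.8% of zero cells, and in 25.9% against 39.9%. A Tyms UMI was found in 4.41% of high against 33.4% of zero cells, and in 15.8% against 34.4%. These genes were chosen because their sums differed in the same cells, so the shares describe how the differences were spread over cells and add no support to them.

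List UMIs were counted in the same thinned cells. At least 10 S phase UMIs were present in 16.2% of high against 53.5% of zero cells in library 1, and in 30.9% against 59.5% in library 2. At least 10 G2 and mitosis UMIs, at any S phase count, were present in 32.4% of high against 44.2% of zero cells, and in 50.4% against 55.0%. The list as a whole thus did not repeat the excess of Ccnb2. At least 10 G2 and mitosis UMIs with fewer than 10 from the S phase list marked 29.4% of high against 18.7% of zero cells, and 35.3% against 22.1%. Cells below 10 on both lists made up 54.4% of high against 27.8% of zero cells, and 33.8% against 18.4%. Cells above it on both made up 2.94% of high against 25.5% of zero cells, and 15.1% against 32.9%. These classes cut a continuous range, since 8.82% and 12.2% of high cells, against 15.4% and 13.9% of zero cells, had 9 or 10 S phase UMIs. Read the other way, Hist1h2bc was at 198 CPM (156 to 249) and 116 CPM (96.9 to 137) over all cells with Ccnb2 and without Top2a. It was at 70.4 and 90.1 CPM in cells below 10 UMIs on both lists, and at 12.8 and 23.0 CPM in cells with at least 10 on both. These levels restate the same differences from the side of Hist1h2bc and add no support to them.

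**Figure D3:**
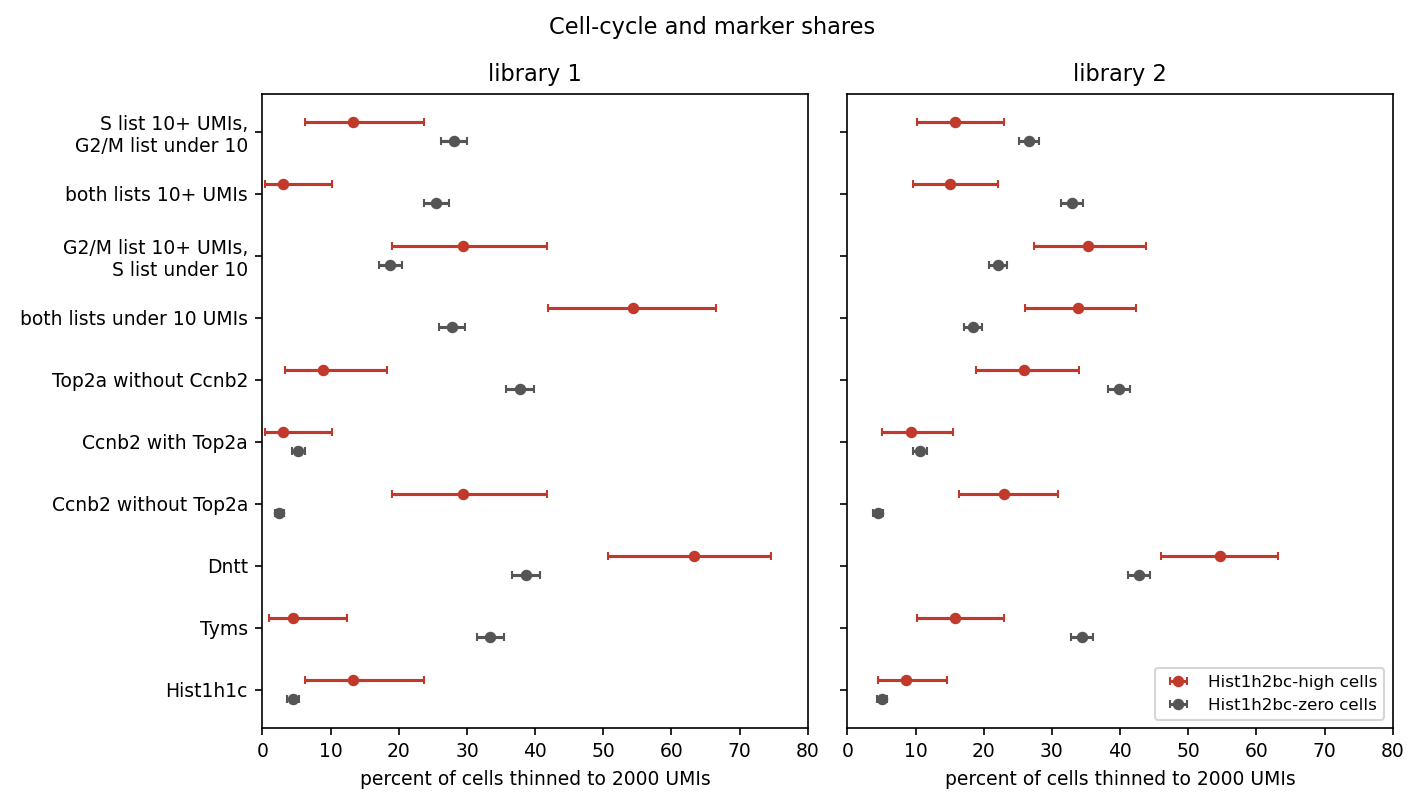
Percent of cells, each thinned to 2000 UMIs, in classes of S phase and G2 and mitosis list UMIs and with a UMI of the named genes, in Hist1h2bc-high (red, upper) and zero cells (grey, lower), with exact 95% binomial intervals. Ccnb2 without Top2a stands at 29.4% and 23.0% of high cells, and Tyms at 4.41% and 15.8%.

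The mitotic cyclin was also high among cells with little other cycle RNA. In the 37 and 46 high cells below 10 UMIs on both lists, Ccnb2 had 23 and 32 UMIs against weighted sums of 2.11 and 3.12 in zero cells of the same class (log2 3.41, interval 2.52 to 4.30, and 3.36, 2.41 to 4.39). Membership of the class was set partly by Ccnb2, which is on the mitosis list. The median high cell of that class had 4 S phase and 4 mitosis UMIs in library 1 and 6 and 4 in library 2, against 6 and 4, and 6 and 3, in zero cells. Dntt was at log2 0.27 and 0.34 and Pcna at 0.00 and -0.52 within it.

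The signal was graded by Hist1h2bc UMIs in some genes and not in others. At 0, 1, 2 and 3 or more Hist1h2bc UMIs, with classes 0 and 1 weighted to the depth of the high cells, Tyms stood at 206, 142, 47.3 and 41.3 CPM in library 1 and at 245, 194, 158 and 91.1 CPM in library 2. Ccnb2 stood at 53.4, 174, 257 and 186 CPM, and at 131, 178, 258 and 250 CPM, so cells with a single Hist1h2bc UMI already lay above those with none. Dntt differed in shape, at 479, 540, 500 and 1101 CPM and at 495, 613, 549 and 932 CPM. The classes of 2 and of 3 or more were not matched to each other in depth, and in the drawn comparison of cells with 3 or more the log2 ratio of Dntt was 1.41 and 0.33. The summed mitosis list was lowest at 3 or more, at 3702 CPM against 5332 CPM at 0 in library 1, and 6488 against 8369 CPM in library 2.

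**Figure D4:**
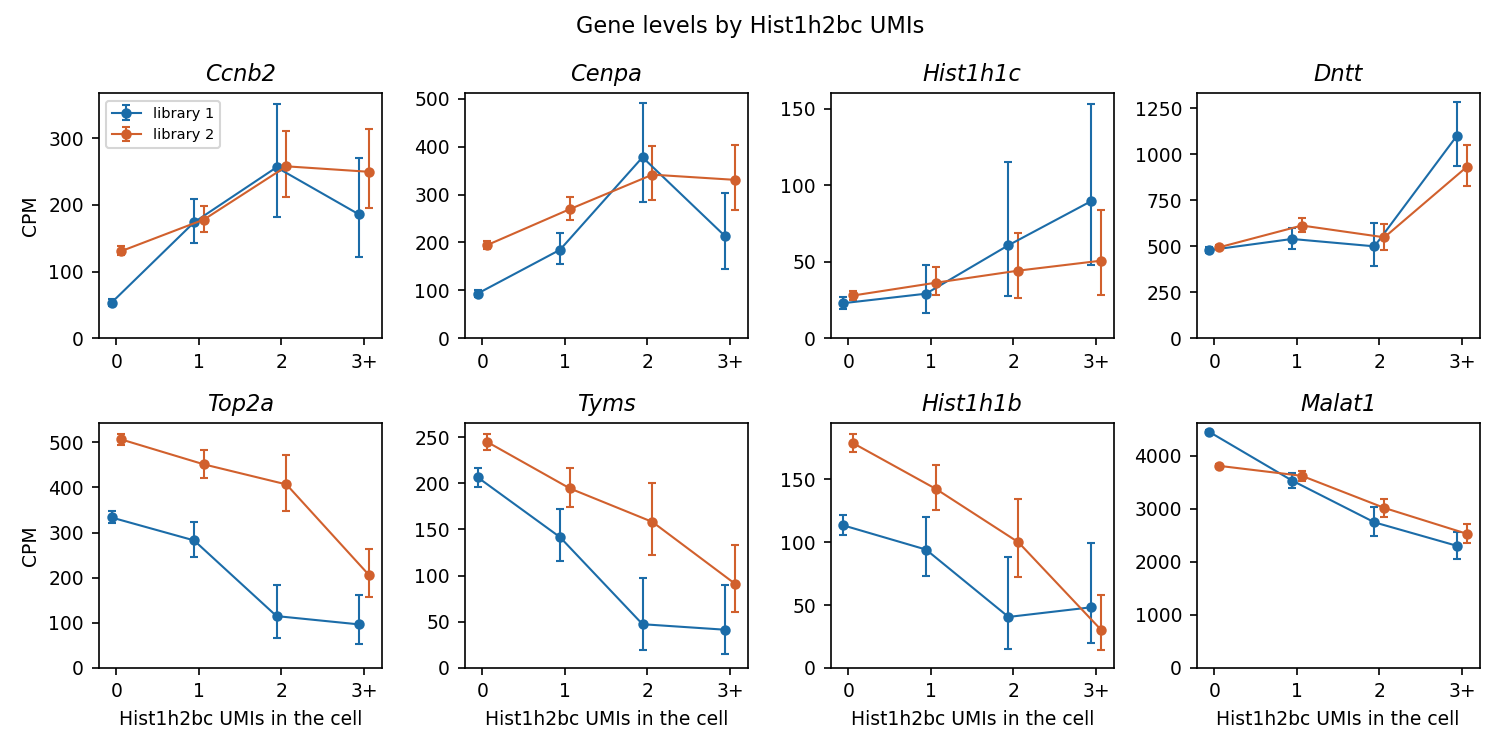
CPM of 8 genes (vertical) in cells with 0, 1, 2 and 3 or more Hist1h2bc UMIs (horizontal) in each library. The 95% Poisson intervals are approximate for the weighted classes 0 and 1. Tyms, Malat1 and Top2a decline over the classes in both libraries; Ccnb2 is already higher at 1 UMI, and Dntt is highest at 3 or more.

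As a sum over all high cells, the other cluster histone genes were not higher. The 66 other genes with Hist symbols, summed, were at log2 -0.09 (-0.40 to 0.22) and -0.34 (-0.52 to -0.16) in the drawn comparison, and at -0.22 (-0.45 to -0.00093) and -0.31 (-0.45 to -0.17) in the weighted one. The sum turned to 0.44 (0.059 to 0.80) and 0.48 (0.084 to 0.87) among cells below 10 UMIs on both cycle lists, and the drawn value of library 1 to 0.0014 with TMM factors. None of the 66 had the 100 UMIs needed for a call in the drawn comparison, and 4 had 20 in the weighted one. Hist1h1c, for linker histone H1.2, was called higher, with 22 UMIs in high cells of library 1 and 34 in those of library 2, at log2 1.71 (0.99 to 2.37) and 0.74, with both intervals above 0. Hist1h1b, for linker histone H1.5, was called lower, with 13 and 52 UMIs, or 44.3 CPM in high cells against 113 CPM in zero cells, and 71.6 against 179 CPM (log2 -1.36 and -1.32). The 2 linker histone genes thus stood on opposite sides in the same cells. Hist1h4i, for histone H4, was at 0.46 and 0.35 and Hist1h1e at -0.36 and -0.32, intervals that included 0 or reached it. Below the minimum, Hist3h2a, for a histone H2A of chromosome 11, had 11 and 52 UMIs (log2 0.63, interval -0.40 to 1.49, and 1.24, 0.79 to 1.67), and Hist1h4d 5 and 5 UMIs (-1.08 and -1.93).

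Replacement histones were level. Of 11 listed genes, 6 were tested in the drawn comparison and Cenpa was the only one called. H3f3b, for histone H3.3, had 409 UMIs in high cells against 391 in zero cells of library 1, and 1245 against 1239 in library 2 (0.04 and 0.01). The log2 ratios of H3f3a were -0.05 and 0.06, those of H2afz -0.08 and -0.12, and those of H2afy, for macroH2A1, -0.16 and -0.17. Histone chaperones, which hand histones on and off DNA, were at -0.09 and -0.10 as a sum. Of 5 tested, 3 were lower in both libraries and 1 higher in both, beside 510 of all 779 genes with the same sign in both. Among the 3 lower chaperones, Ssrp1, of the FACT complex, was at -0.13 and -0.45.

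On the lineage side, Dntt stood apart from the other early lymphoid genes. The 22 listed lymphoid genes summed to log2 0.34 and 0.37 in the drawn comparison and 0.24 and 0.23 in the weighted one, where the list median was 0.03 and 0.09. Without the 5% of cells with the highest doublet scores, which also redraws the zero cells, the sum in library 2 was -0.01. In the weighted comparison Dntt was at 0.74 and 0.51, Satb1, a chromatin organiser of lymphoid progenitors, at -0.17 and 0.30, and Flt3, a receptor tyrosine kinase of early progenitors, at 0.10 and -0.05; Il7r, the interleukin 7 receptor, had 2 and 10 UMIs. A Dntt UMI was found in 63.2% of high against 38.6% of zero cells, and in 54.7% against 42.8%, after thinning. Cells with Dntt and Ccnb2 and without Top2a numbered 16 of 68 high against 22 of 2192 zero cells in library 1, and 18 of 139 against 58 of 3537 in library 2. These genes were chosen because each differed in the same cells, so the counts add no support. Whether Dntt and Ccnb2 went together within high cells was not tested.

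Myeloid granule genes were lower as a sum, at log2 -0.25 and -0.12 when drawn. Prtn3 (proteinase 3) was at -0.31 and -0.07 in the weighted comparison and Mpo (myeloperoxidase) at -1.44 and -0.27. In library 2 the drawn ratio of Mpo had the opposite sign to the weighted one, so Mpo was not lower there in both comparisons. After thinning, an Mpo UMI was found in 10.3% of high against 17.5% of zero cells in library 1. In library 2 it was found in 17.3% of high against 14.3% of zero cells. Elane, the neutrophil elastase gene, had the lowest weighted ratio of all, with 3 and 1 UMIs in high cells, but 10 zero cells held 96.8% of its 593 UMIs in zero cells of library 1 and 94.7% of 1071 in library 2. Its ratio therefore rested on a few cells. Cd74, the invariant chain of class II presentation, was also called lower, at -0.91 and -0.64, while 44 of its 60 UMIs in high cells of library 1 came from 1 cell and the drawn ratio of library 1 was 0.87 without the cells of highest doublet score. Nkg7, a granule membrane gene, was at -0.41 and -0.47 when drawn.

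The interferon-induced gene Ifi27l2a was among those called higher, with 51 and 117 UMIs in high cells, or 174 CPM against 83.8 CPM in zero cells, and 161 against 73.5 CPM. The 23 listed interferon genes summed to 0.10 and 0.23 when drawn. Casp1, the inflammatory caspase, was at 1.03 and 0.81 when weighted. When drawn it was at 0.89 (-0.36 to 2.24) and 0.86 (-0.07 to 1.84). Stem cell genes differed little as a sum, at 0.03 and 0.13 when drawn. Weighted, they were at 0.13 (0.066 to 0.20) and 0.09 (0.048 to 0.14), with both intervals above 0. Ifitm1 and Ifitm3 stood on both the stem cell and the interferon list.

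**Figure D5:**
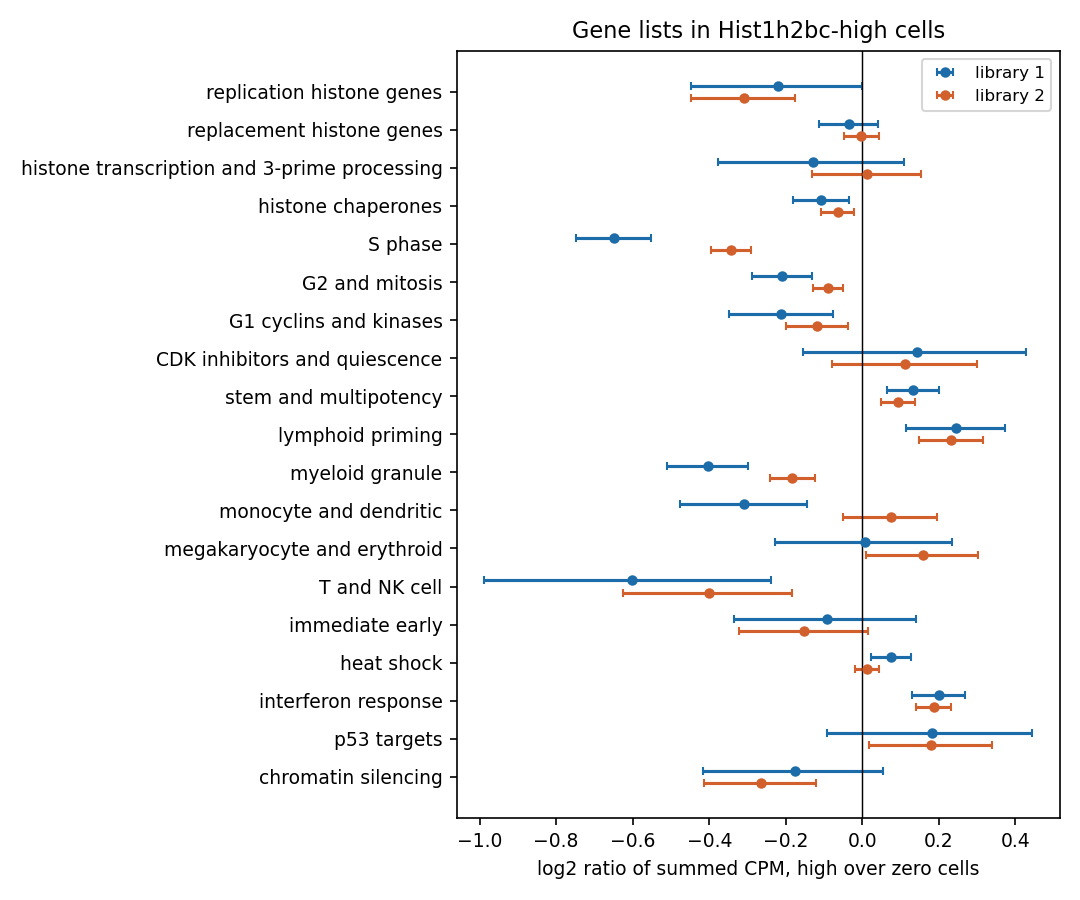
Log2 ratio of summed CPM (horizontal) in Hist1h2bc-high over zero cells for each gene list (rows) and library, with approximate 95% intervals. All zero cells were weighted to the depth of the high cells, and lists under 50 UMIs in either library are left out. The S phase list is lowest or among the lowest in both libraries and the lymphoid list is on the high side.

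The high cells carried the markers of the sort at about the share of the zero cells. After thinning, a Cd34 UMI was found in 55.9% of high against 53.7% of zero cells, and in 61.2% against 59.1%; for Ly6a, which encodes Sca-1, the shares were 44.1% against 41.8%, and 36.0% against 40.3%. Kit, which encodes c-kit, was found in 4.41% of high against 6.43% of zero cells, and in 5.76% against 6.93%, so at this depth a gene of the sort itself was missed in most cells.

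Lists of markers of other cells were found in differing shares. A UMI of the B cell list was present in 22.1% of high against 12.5% of zero cells in library 1, and in 18.0% against 13.7% in library 2, with weighted sums at log2 0.72 (0.14 to 1.24) and 0.28 (-0.12 to 0.65). Cd79b, a chain of the B cell receptor, gave 29 of the 31 and 61 of the 62 UMIs of that list in high cells. A UMI of the T and NK cell list was present in 30.9% of high against 43.3% of zero cells, and in 31.7% against 44.2%; Nkg7 gave 62 of its 63 and 173 of its 178 UMIs in high cells. The stromal and endothelial list was found in 7.35% of high against 9.12% of zero cells, and in 11.5% against 9.02%, mostly through Pecam1, with 10 and 25 UMIs in high cells, and Emcn, with 7 and 14, both genes of endothelium. Its drawn sums were at log2 0.82 (-0.37 to 2.10) and 0.97 (0.18 to 1.80). Weighted, they were at 0.34 (-0.43 to 1.02) and 0.44 (-0.056 to 0.89), with both intervals including 0. The macrophage list was found in 7.35% of high against 8.49% of zero cells, and in 5.04% against 7.86%. The mast cell and basophil list was found in 2.94% of high against 1.87% of zero cells, and in 2.88% against 2.09%. The mature neutrophil list was found in 0 of 68 high cells, which allows a share of cells with a UMI of up to 5.28% by the exact interval, against 1.82% of zero cells, and in 0.719% against 1.27%. Col1a1 and Cdh5 (stroma and endothelium), Camp (neutrophils), Gata1 and Hbb-bs (red cell lineage) had no UMI in any high cell, and Ms4a1 (B cells) had 1. Hbb-bs, a globin gene that progenitors should lack and that free RNA can bring, was found in 0.274% and 0.17% of zero cells. The part of these transcripts in the other differences was not tested.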

How the data were processed

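The deposited matrix holds UMI counts per gene and barcode, made by the authors with Cell Ranger 1.1 on mm10, per the submitters' processing notes; their filters and cell calling are not given in the sources used here. Of 7884 barcodes, 59 with under 500 genes and 2 with 10% or more mitochondrial UMIs were left out. Kept libraries held 10118499 and 18750468 UMIs. Members, gene lists and comparisons were chosen with earlier results of these data known. UMIs were summed per group and library (Python 3.11.15, scipy 1.17.1). Zero cells were drawn 1 to 1 within bins of 0.1 log10 UMIs, or all were weighted to those bins. Ratios carry conditional Poisson intervals, exact for drawn cells. Weighted sums entered as effective counts, so their intervals are approximate. The genes named are the 15 highest and 15 lowest in both libraries, histone genes tested, and for each list its 4 with the most UMIs and 2 with the largest ratio, of which those that add to the account are printed; others are said to be chosen later. Thinning used 1 fixed random draw. The summing and ratio steps were tested on simulated counts. Alternatives are given in the closing section, among them TMM factors from edgeR 4.0.16 and doublet scores from Scrublet in scanpy 1.11.5. Sequences came from GENCODE M21 and RefSeq; Hist1h2bc has no entry in the promoter table used. Some genes are not reported here.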

Additional observations from a re-analysis of the deposited data

How the results depend on the processing

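Of 1372 recomputed values of named genes and of granule and stem cell sums, 1184 lay inside the counting interval of the reported value and 188 outside it; 132 had the other sign, 16 of them where that interval excluded 0; the cause was not tested unless given. Genes called higher in the drawn comparison numbered 1 of 379 tested at a minimum of 200 UMIs and 320 of 8110 at 1 UMI per group. At the lower fold tried they numbered 7 of 779. They numbered 0 of 380 with 3 or more Hist1h2bc UMIs and 1 of 793 against cells with 0 or 1 UMI. Without matching they numbered 35 of 6231, thinned to 2000 UMIs 39 of 4188 and matched on cycle class 0 of 665. With 1000 or more genes and under 5% mitochondrial UMIs 1 of 607 was called, and without the highest doublet scores 0 of 730. With weighted zero cells at the same minimum of 100 UMIs 1 of 770 was called. Among cells below 10 UMIs on both cycle lists 0 of 313 were called. A gene could also drop out by missing the minimum, as Cenpa did with 3 or more Hist1h2bc UMIs, at log2 0.70 and 0.93. Genes called lower, of the same genes tested, numbered 1, 409 and 24 in the first 3 of these settings and 5 with 3 or more Hist1h2bc UMIs. They numbered 228 without matching, 206 thinned, 0 matched on cycle class and 1 among cells below 10 UMIs on both lists. The share of high cells was 1.51% and 1.55% at 3 or more UMIs and 1.31% and 1.17% when thinned, by construction.

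The S phase sum stayed below 0 in both libraries under every alternative. It was -0.73 in library 1 with another draw, -0.76 and -0.52 thinned, -0.22 and -0.16 matched on cycle class, -0.27 and -0.23 below 10 UMIs on both lists, and in library 2 -0.28 under the stricter barcode filter and -0.29 without the highest doublet scores. The G2 and mitosis sum was -0.42 and -0.26 at 3 or more UMIs, -0.34 and -0.18 against cells with 0 or 1 UMI, and -0.043 in library 1 without the highest doublet scores. It turned to 0.031 and 0.041 below 10 UMIs on both lists, and in library 2 to 0.067 without matching and 0.070 thinned, and was -0.015 there matched on cycle class. The cluster histone sum was 0.44 and 0.48 below 10 UMIs on both lists, and in library 2 -0.043 matched on cycle class and -0.15 under the stricter filter. The lymphoid sum was 0.076 and 0.070 against cells with 0 or 1 UMI, 0.037 and 0.048 matched on cycle class, and -0.0072 and 0.014 below 10 UMIs on both lists. In library 1 it was 0.025 under the stricter filter; in library 2 it was 0.17 at 3 or more UMIs, 0.084 without matching, 0.12 thinned, -0.0062 without the highest doublet scores and 0.23 weighted.

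Of values whose interval excluded 0, the sign changed below 10 UMIs on both lists for granule genes (0.13 and 0.036), stem cell genes (-0.039, library 2), Pcna (0.0017) and Prtn3 (0.11) in library 1, and Tyms (0.18) and Pbk (0.00091) in library 2. It also changed for Cdkn3 (-0.15) and Mcm3 (0.093) at 3 or more UMIs and granule genes thinned (0.054), all in library 2, and for Pcna (0.24) and Aurkb (0.093) matched on cycle class in library 1. Under the stricter filter it changed for Aurkb (1.22, library 1), Rpl22l1 (-0.027) and Mcm3 (0.038), and without the highest doublet scores for Cd74 (0.87, library 1). TMM factors turned 7 values and a total without ribosomal, mitochondrial and histone genes 5 values across 0, the cluster histone sum of library 1 among the 7 (0.0014), all inside the interval of the reported value. High and zero cells were compared within each library, and neither genotype had a second library.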
